A study of Drosophila melanogaster with 8 samples.

Results

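The ecdysone receptor and factors of its transcriptional response were followed in embryonic cells of Drosophila melanogaster. The 10 genes, taken by symbol from 15182 fly genes, were EcR, usp, Eip75B, Eip78C, Hr46, Hr4, Hr39, ftz-f1, Eip74EF and Blimp-1, with 35 of 25406 listed isoforms. Embryos carried the transgene E10::EGFP, in which the enhancer E10 of the gene ovo drives green fluorescent protein. Eggs were collected over 1 h, and the embryos developed at 25 °C for roughly 11 h until they were taken apart at early stage 14. In each of 4 sorts, 1 library came from EGFP-positive cells, called GFP-positive here, and 1 from 50000 cells of the parent scatter gate, called all cells. By the sample labels the all-cell libraries thus also hold GFP-positive cells, whereas the design text of the series calls the background cells GFP-negative; the labels are followed here. Each sort used many embryos from population cages, pooled.

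In insects the steroid 20-hydroxyecdysone binds a heterodimer of the nuclear receptors EcR and usp, which then acts directly on early genes. Among these are the nuclear receptor Eip75B and the ETS factor Eip74EF, followed by the early-late receptors Eip78C, Hr46, Hr4 and Hr39 and by the repressor Blimp-1. At the onset of metamorphosis, where the cascade was mainly worked out, Hr46 activates ftz-f1, Eip75B opposes Hr46, and Blimp-1 delays ftz-f1. The embryo has an ecdysone pulse of its own, for which the amnioserosa is a known source, and which late epidermal morphogenesis and cuticle formation need.

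The check of the sort was ovo, the gene that E10 belongs to, which exceeded the all-cell level in each of the 4 sorts, by 2.65 log2 units over all (limma adjusted p = 1.53e-05). All 9 epidermis and trichome markers, all 5 tracheal and all 7 tested amnioserosa markers were called higher. The summed FPKM of the lists lay between 1773 and 2331 against 149 to 315, between 2221 and 3189 against 461 to 869, and between 263 and 416 against 126 to 144. All 8 neuronal, 4 glial, 7 muscle and 3 tested fat body markers were called lower, with sums of 88.5 to 267 against 537 to 1086, 16.6 to 26.2 against 98.6 to 129, 319 to 550 against 1835 to 2836, and 25.6 to 71.9 against 371 to 838. Of the lists for neuroblasts, hemocytes, endoderm and germ cells, 4 of 5, 2 of 4, 3 of 4 and 2 of 3 tested genes were called lower and 0 higher. These lists moved with the 2 groups in every comparison below, and their part in the results was not tested. In such pools fewer cells of a type and less RNA per cell cannot be told apart. The deposited values are FPKM, fragments scaled by transcript length and library depth, from about 6600000 to 9700000 fragments in GFP-positive and 10100000 to 12200000 in all-cell libraries, as estimated from the smallest values. The floor of 3 fragments on 1 kb then lay at 0.311 to 0.456 and 0.246 to 0.297 FPKM, for counting error only.

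As a group, 6 of the 10 genes were higher in GFP-positive cells, 0 were lower and 4 did not pass the test. EcR, Eip78C, Hr46, ftz-f1, Eip74EF and Blimp-1 rose, by 0.73 to 1.87 log2 units. The background was 11.6% of the 10943 genes tested called higher and 38.7% called lower (limma on log2(FPKM + 1), Benjamini-Hochberg adjusted p below 0.05). All 10 genes passed the filter on low values. The median of the 10 differences was 0.75, against -0.47 over all genes tested. In the same 6 genes every GFP-positive library lay above every all-cell library, which held for 10.2% of all genes tested.

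These counts depend on what the libraries are scaled to. With TMM-like scaling, which brought the median of all genes to -0.10, 8 of the 10 genes were called higher and 0 lower, against 19.0% and 22.2% of all genes. Hr39 (0.88) and Hr4 (0.69) were the added calls. ERCC spike-ins are RNAs added before amplification, for all samples from Mix 2 per the labels' protocols. Scaled by 5 of them, a setting chosen after the data were seen, the median of all genes went to -1.37. Then 0 of the 10 were called higher and 1, Eip75B, was called lower, against 3.15% and 64.8% of all genes. Under that scaling Eip78C, Eip74EF, ftz-f1 and Blimp-1 kept values above 0 (0.27 to 0.86) while EcR (-0.28) and Hr46 (-0.32) turned below 0. The SE of these genes was 0.44 to 0.54 there, and EcR and Hr46 lay within 1 SE of 0. The spike-ins themselves did not keep 1 ratio. The 17 spike-ins above 20 FPKM in all libraries formed 4 clusters of log2 ratio between the groups, in sort 1 at -1.56 to -1.35, 0.43 to 0.68, 0.93 to 1.32 and 1.59 to 1.76. The 5 used are the second-lowest cluster, and they stood at 1.80 to 2.37 in sort 4 against 0.43 to 1.31 in sorts 1 to 3. A scaling by the sum of all 92 spike-ins, the ERCC sum below, pools spike-ins of all 4 clusters. Why the clusters differ was not tested. Fold changes below are on the log2(FPKM + 1) scale of the deposited values, which understates the change of low genes.

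**Figure D1:**
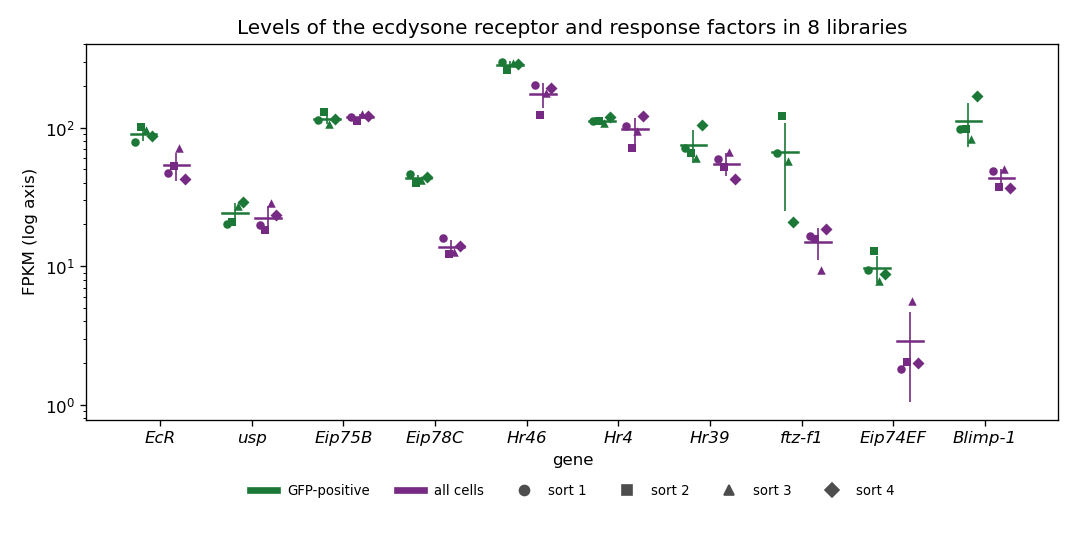
FPKM of the 10 genes (log axis) in each of 4 GFP-positive and 4 all-cell libraries; symbols mark the sort, short lines the mean and vertical lines 1 SD. EcR, Eip78C, Hr46, ftz-f1, Eip74EF and Blimp-1 show no overlap between the groups; the GFP-positive library of sort 4 is the lowest of its group for ftz-f1 (21.0) and the highest for Blimp-1 (170).

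The receptor's own subunits differed in their behaviour. EcR (CG1765, chromosome 2R, 1977924 to 2056681 on build dm3), the ligand-binding subunit, stood at 78.4, 101, 96.5 and 86.8 FPKM in GFP-positive libraries 1 to 4 and at 47.0, 53.3, 71.1 and 42.9 FPKM in all-cell libraries 1 to 4. The groups did not overlap, and all-cell library 3 came closest to the GFP-positive ones. The means were 90.6 ± 9.93 and 53.6 ± 12.4 FPKM (SD, n = 4 each), a log2 difference of 0.77 (SE 0.17, limma adjusted p = 0.00317). The partner usp (CG4380, chromosome X, 1932831 to 1935343), the homologue of the vertebrate retinoid X receptor, stood at 20, 21.0, 27.1 and 28.9 FPKM against 19.9, 18.1, 28.5 and 23.3 FPKM. The groups overlapped throughout, and the log2 difference of 0.11 (SE 0.19, limma adjusted p = 0.649) did not pass the test. The locus of usp lies inside that of Actn, which was itself at 64.5 to 107 against 47.1 to 61.6 FPKM; the authors' use of strand is not given in the sources used here.

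A ratio of 2 genes within a library is unchanged when the library is scaled by 1 factor (quantile normalization is not such a scaling), and EcR was therefore also set against usp. The ratio was 3.92, 4.79, 3.56 and 3.00 in GFP-positive libraries and 2.37, 2.95, 2.50 and 1.84 in all-cell libraries. Every GFP-positive library lay above every all-cell library, with means of 3.82 ± 0.747 and 2.41 ± 0.457 (SD, n = 4 each). The exact two-sided permutation test gave p = 0.0286, the lowest value possible with 4 libraries a group, and 0.0429 when adjusted over the 3 ratios computed. With the sorts as pairs the exact sign-flip test gave p = 0.125, the lowest value possible with 4 pairs, so that the call is lost there. The 3 pairs were chosen after their genes' values had been seen.

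EcR is made as proteins that share the DNA- and ligand-binding domains and differ at the N-terminus. Isoforms were grouped by shared coding exons in a later annotation, and the groups are named by protein length. EcR-RB, whose 878-residue product is known as EcR-B1, stood at 20.9, 26.4, 39.0 and 27.2 FPKM against 9.63, 11.9, 16.6 and 8.82 FPKM. It rose in all 4 sorts without overlap, by 1.21 log2 units (SE 0.25, limma adjusted p = 0.00529). The isoforms with the 849-residue product, EcR-A, summed to 43.8, 46.6, 40.2 and 43.5 FPKM against 27.2, 28.3, 40.4 and 28.4 FPKM, and overlapped through all-cell library 3. Of these, EcR-RD, at 32.4 to 34.8 against 19.7 to 31.1 FPKM, was called higher (0.53, SE 0.17, limma adjusted p = 0.0377), but kept the call in only 1 of 8 fits without 1 library. EcR-RA (0.29) and EcR-RE (0.18) were not called. EcR-RC, for the 669-residue EcR-B2, stood at 13.7 to 27.5 against 5.71 to 14.1 FPKM; its difference was 0.76 (limma adjusted p = 0.0802, or 0.0476 with the sort as a block). EcR-RB held 31.2 ± 6.58% of EcR in GFP-positive and 21.7 ± 1.42% in all-cell libraries (SD, n = 4 each).

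The early receptor Eip75B did not differ as a gene. Its protein binds haem and represses transcription. Eip75B (CG8127, chromosome 3L, 17944508 to 18057721) stood at 114, 130, 106 and 115 FPKM against 120, 111, 125 and 122 FPKM. The groups overlapped, with means of 116 and 119 FPKM and a log2 difference of -0.04 (SE 0.12, limma adjusted p = 0.785). This value of about 0 lay 0.42 above the median of all genes; it became 0.41 with TMM-like scaling, and -1.09 (adjusted p = 0.0213) when scaled by the 5 spike-ins.

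Of the isoforms of Eip75B only Eip75B-RD was called. Eip75B-RD, with a 906-residue product, stood at 52.7, 54.1, 43.7 and 34.9 FPKM against 31.4, 15.7, 24.3 and 29.7 FPKM. It was higher in every GFP-positive library, by 0.87 log2 units (SE 0.24, limma adjusted p = 0.0184, or 0.0516 without GFP-positive library 2). Eip75B-RA (-0.30), Eip75B-RC (-0.48) and Eip75B-RF (-0.65) lay on the other side of 0 and were not called. Eip75B-RF nevertheless did not overlap, at 1.58 to 3.97 against 4.29 to 5.64 FPKM. Eip75B-RD thus held 46.1, 41.6, 41.4 and 30.4% of the gene in GFP-positive libraries and 26.2, 14.2, 19.4 and 24.4% in all-cell libraries. This difference in share was not called (exact two-sided permutation test, adjusted p = 0.10).

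Eip78C had the smallest spread between sorts. This early-late receptor, related to Eip75B (CG18023, chromosome 3L, 21219709 to 21259603), stood at 46.1, 40.1, 41.7 and 44.0 FPKM against 16.1, 12.2, 12.7 and 14.1 FPKM. All GFP-positive libraries lay far above all all-cell libraries, and the differences within the 4 sorts, 1.46 to 1.64 log2 units, were close to each other. The means were 43.0 and 13.8 FPKM, 3.12-fold apart, with a log2 difference of 1.58 (SE 0.15, limma adjusted p = 2.63e-05). CG43218, a gene inside the locus of Eip78C, was itself higher at 32.7 to 68.6 against 18.4 to 21.3 FPKM, so that fragments of the 2 may not be fully separable.

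The rise of Eip78C was carried by 1 of its isoforms. Eip78C-RB, annotated with a 392-residue product, stood at 43.7, 39.5, 37.2 and 42.4 FPKM against 11.4, 5.36, 7.40 and 7.63 FPKM. It was 2.26 log2 units higher (SE 0.22, limma adjusted p = 1.97e-04) and was called higher under all scalings run, the spike-in scalings included. The short product is known as E78B and lacks the DNA-binding domain of the long form. Isoforms with the 862-residue product summed to 2.44, 0.596, 4.46 and 1.67 FPKM against 4.77, 6.82, 5.32 and 6.51 FPKM, with every GFP-positive library below every all-cell library. Among them Eip78C-RD fell by 1.39 log2 units (limma adjusted p = 0.00994) from 1.20 to 3.77 FPKM to between 0 and 0.596 FPKM, close to the floor. Eip78C-RE, at 0 to 3.67 against 0.319 to 4.79 FPKM, was not called (-0.38). The short form held 94.7 ± 3.92% of Eip78C in GFP-positive and 56.6 ± 10.9% in all-cell libraries (SD, n = 4 each).

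**Figure D2:**
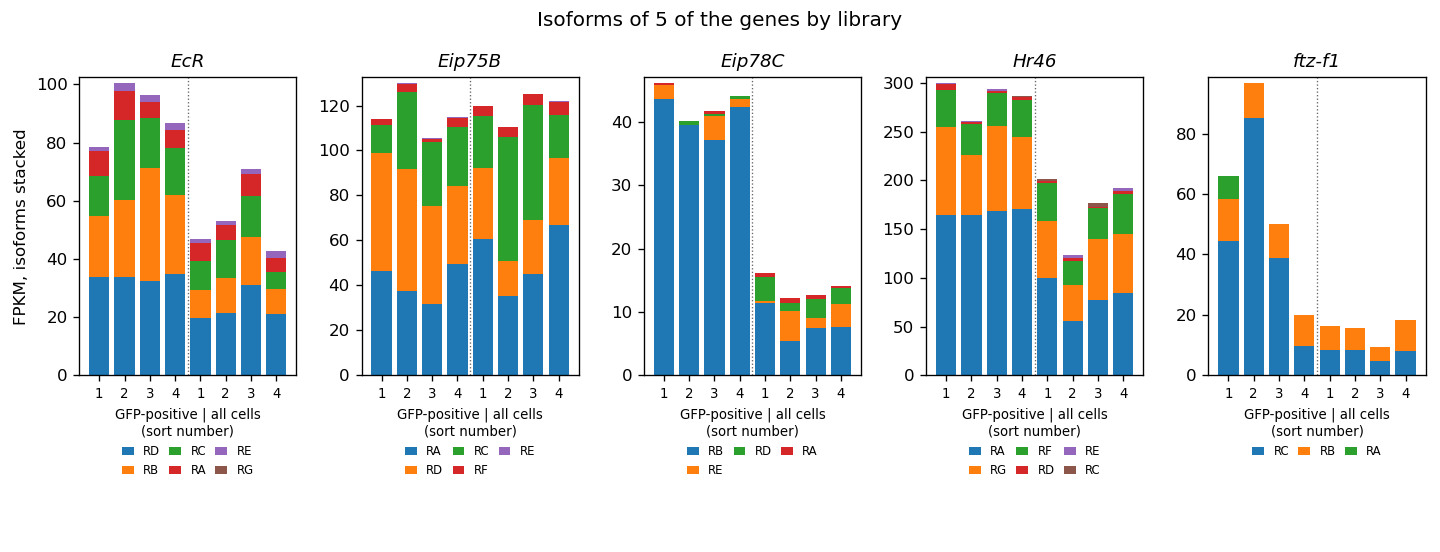
FPKM of the isoforms of EcR, Eip75B, Eip78C, Hr46 and ftz-f1, stacked by library; the dotted line parts the 4 GFP-positive (left) from the 4 all-cell libraries (right), numbered by sort. Eip78C-RB makes up 89.3 to 98.5% of the GFP-positive bars and 44.0 to 70.4% of the all-cell bars.

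Whether the make-up of a gene differed was tested over isoform shares. By the exact two-sided permutation test 0 of 21 isoforms passed after adjustment, while 6 reached the smallest unadjusted p of 0.0286 (adjusted p = 0.10 each). Over all 10208 isoforms that met the same criterion in tested genes, shares did not overlap between the groups in 11% (1123 isoforms). These 6 were EcR-RB, Eip78C-RB, Hr46-RA and Eip75B-RD, with higher shares in GFP-positive cells, and Eip78C-RD and Hr46-RF, with lower shares. Shares of 1 gene depend on each other. With 21 isoforms adjusted together, the smallest p passes only if most of them reach it, so this test could hardly call a few isoforms. A fit of each isoform against the rest of its gene, over 8371 isoforms and added after the exact test was seen, called 2 of 25 isoforms of these genes. They were Eip78C-RB, higher by 3.45 log2 units (SE 0.47, limma adjusted p = 0.0119), and Eip78C-RD, lower at -3.23 (SE 0.35, limma adjusted p = 0.00484). The background was 1.45% of isoforms called higher and 1.54% called lower. With the sort as a block the 2 limma adjusted p were 0.0916 and 0.0766, in a fit that called 4 higher and 3 lower of all 8371 isoforms. Eip75B-RD had a difference of 1.31 (SE 0.36, limma adjusted p = 0.0981).

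Of the isoforms as such, 28 of 35 could be tested. Called higher were 9, which were EcR-RB, EcR-RD, Eip78C-RB, Eip75B-RD, Hr46-RA, ftz-f1-RC, Eip74EF-RB, Eip74EF-RE and Blimp-1-RA, and called lower was Eip78C-RD alone. The background was 9.28% of 16198 isoforms called higher and 27.2% called lower.

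Of the other early-late receptors, Hr46 rose. Hr46 (CG33183, chromosome 2R, 6091773 to 6124853), also called DHR3 and related to the vertebrate ROR receptors, stood at 299, 261, 294 and 286 FPKM against 202, 124, 177 and 192 FPKM. It was the most abundant of the 10 in both groups, above 97.5% of tested genes in GFP-positive and above 96.5% in all-cell libraries. The groups did not overlap, and all-cell library 2 was the lowest. The log2 difference was 0.73 (SE 0.16, limma adjusted p = 0.00284). Hr46-RA, the main isoform with a 487-residue product, stood at 164, 165, 169 and 171 FPKM against 100, 56.0, 77.8 and 84.2 FPKM. It rose by 1.09 log2 units (SE 0.17, limma adjusted p = 0.00140) and varied little among the GFP-positive libraries. Hr46-RF, at 31.5 to 38.7 against 25.4 to 41.1 FPKM, was not called (0.07), nor were Hr46-RD (0.38) and Hr46-RE (-0.14). Hr46-RG, at 61.5 to 90.3 against 36.4 to 62.4 FPKM, had a difference of 0.53 (limma adjusted p = 0.0728, or 0.0225 with the sort as a block). CG12912, inside the locus of Hr46, ran the other way, at 2.38 to 5.83 FPKM and below all all-cell libraries, which reached 19.5 FPKM.

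Set against its known antagonist Eip75B within each library, Hr46 was 2.62, 2.01, 2.78 and 2.49 times as abundant in GFP-positive and 1.69, 1.12, 1.41 and 1.58 times as abundant in all-cell libraries. The groups did not overlap, and the exact two-sided permutation test gave p = 0.0286 (adjusted p = 0.0429 over 3 ratios). With the sorts as pairs the exact sign-flip p was 0.125, again the lowest possible, and the call is lost. Scaling each library by 1 factor leaves this ratio as it is. Hr46 itself went to -0.21 (SE 0.51) with the ERCC sum and -0.32 (SE 0.44) with the 5 spike-ins, both within 1 SE of 0.

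**Figure D3:**
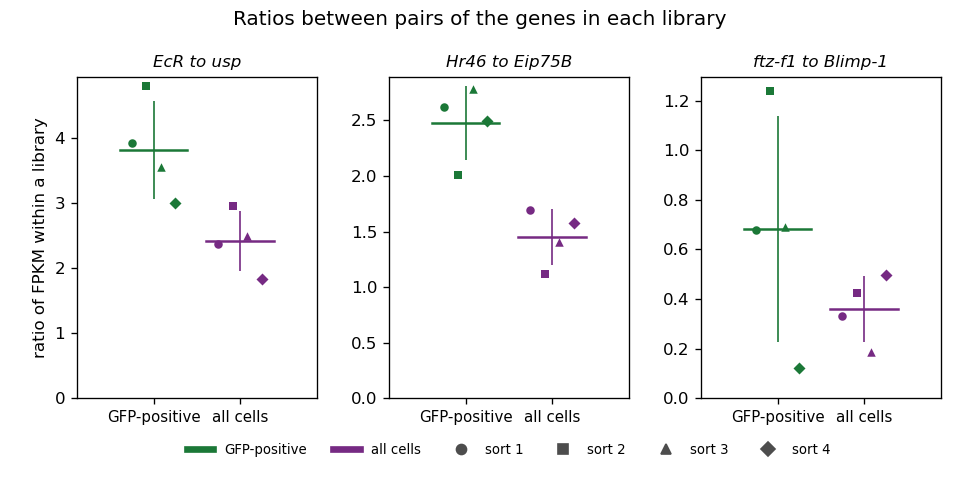
Ratio of the FPKM of 2 genes within each library for 3 pairs; symbols mark the sort, short lines the mean and vertical lines 1 SD of 4 libraries. EcR to usp and Hr46 to Eip75B are higher in all 4 GFP-positive libraries, while ftz-f1 to Blimp-1 overlaps and is lowest, at 0.124, in the GFP-positive library of sort 4.

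Hr4 and Hr39 did not pass the test. Hr4 (CG16902, chromosome X, 1891620 to 1898128), which in the larva links ecdysone to growth, stood at 111, 111, 108 and 119 FPKM against 102, 71.0, 94.8 and 121 FPKM. The GFP-positive libraries hardly varied, while the all-cell ones spread around them. The log2 difference was 0.23 (SE 0.16, limma adjusted p = 0.242). Hr39 (CG8676, chromosome 2L, 21237237 to 21259675), a receptor of the same family as ftz-f1, stood at 70.9, 65.2, 60.8 and 105 FPKM against 59.4, 51.9, 66.2 and 42.7 FPKM. The groups overlapped, and sort 4 held both the highest GFP-positive and the lowest all-cell library. The log2 difference was 0.43 (SE 0.19, limma adjusted p = 0.0853), with 1.28 in sort 4 against -0.12 to 0.32 in the others. It was 0.27 without GFP-positive library 4 and 0.32 without all-cell library 4. Its isoforms Hr39-RA (0.44), Hr39-RB (0.51), Hr39-RC (0.45) and Hr39-RD (-0.43) were not called.

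The competence factor ftz-f1 had the largest difference of the 10 with all libraries in the fit. This orphan receptor (CG4059, chromosome 3L, 18743707 to 18794409) is needed for larval cuticle formation and, in prepupae, for the response to the next pulse. It stood at 66.1, 121, 57.1 and 21.0 FPKM against 16.4, 15.7, 9.33 and 18.4 FPKM. Libraries 1 to 3 of the GFP-positive group lay far above all all-cell libraries, whereas library 4 lay just above the highest of them. The log2 difference was 1.87 (SE 0.42, limma adjusted p = 0.00371), made of 1.95, 2.87 and 2.49 in sorts 1 to 3 and 0.19 in sort 4. Without GFP-positive library 4 it was 2.33 (SE 0.29, adjusted p = 1.43e-04), and without GFP-positive library 2 it was 1.51 (SE 0.37, adjusted p = 0.00914), below the 1.61 of Eip78C in the same fit. GFP-positive library 4 also had the lowest summed FPKM of its group for the epidermis (1773) and tracheal lists (2221) and the highest for the amnioserosa list (416), whose part in the result was not tested. Single markers were divided. In the epidermis list dyl, f, m and kkv were lowest in that library, while ovo, sha, mey, y and grh were not. In the tracheal list vvl, serp and verm were lowest there, while trh and btl were not. In GFP-positive library 2 the deposited gene value was 1.25 times the sum of its isoforms (96.7 FPKM), the largest such gap among the 10 genes.

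Both protein forms of ftz-f1 differed least between the groups in sort 4. Isoforms with the 803-residue product, known as beta and made in late embryos and prepupae, summed to 52.0, 85.2, 38.8 and 9.56 FPKM against 8.64, 8.33, 4.70 and 8.07 FPKM. ftz-f1-RC made up nearly all of it and was called higher (2.13, SE 0.54, limma adjusted p = 0.0130). ftz-f1-RB, with the 1027-residue alpha product of early embryos, stood at 14.0, 11.5, 11.2 and 10.5 FPKM against 7.71, 7.36, 4.63 and 10.3 FPKM. Its groups did not overlap, but it was not called (0.63, limma adjusted p = 0.0817). By sort it differed by 0.79, 0.58, 1.11 and 0.02 log2 units, and ftz-f1-RC by 2.27, 3.21, 2.81 and 0.22. The low ftz-f1 value of GFP-positive library 4 thus lay mostly in the beta form, while alpha stayed between 10.5 and 14.0 FPKM in all 4 GFP-positive libraries. Against the rest of the gene ftz-f1-RB lay at -1.55 and was not called (limma adjusted p = 0.201).

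Eip74EF was the least abundant of the 10. This ETS factor (CG32180, chromosome 3L, 17553258 to 17612407), an early gene, stood at 9.42, 12.8, 7.81 and 8.76 FPKM against 1.82, 2.04, 5.59 and 1.99 FPKM. The groups did not overlap, though all-cell library 3 lay well above the other 3. The log2 difference was 1.55 (SE 0.31, limma adjusted p = 0.00203). In all-cell library 3 the isoform Eip74EF-RD was listed at 2.43 FPKM, and at 0 in the other 7 libraries. Eip74EF-RB, with an 883-residue product, stood at 6.19, 10.9, 5.54 and 3.26 FPKM against 0.704, 1.13, 2.48 and 0.942 FPKM and was called higher (1.65, SE 0.39, limma adjusted p = 0.00917). Eip74EF-RE, with an 844-residue product, stood at 3.24, 1.92, 2.27 and 5.50 FPKM against 1.11, 0.906, 0.676 and 1.05 FPKM. It was called higher too (1.06, SE 0.33, limma adjusted p = 0.0299), but only in 2 of 8 fits without 1 library.

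Blimp-1 rose as well. This zinc finger repressor (CG5249, chromosome 3L, 5624083 to 5642049), which ecdysone induces and which holds back ftz-f1 in prepupae, stood at 97.5, 97.6, 82.6 and 170 FPKM against 49.0, 37.0, 50.2 and 36.8 FPKM. All GFP-positive libraries lay above all all-cell libraries, and library 4 was the highest. The log2 difference was 1.31 (SE 0.22, limma adjusted p = 5.94e-04), or 1.09 without GFP-positive library 4. The ratio of ftz-f1 to Blimp-1 was 0.678, 1.24, 0.692 and 0.124 in GFP-positive and 0.333, 0.424, 0.186 and 0.499 in all-cell libraries. It was higher in 3 of 4 sorts and overlapped (exact two-sided permutation p = 0.457, adjusted p = 0.457 over 3 ratios). In sort 4 it ran the other way.

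**Figure D4:**
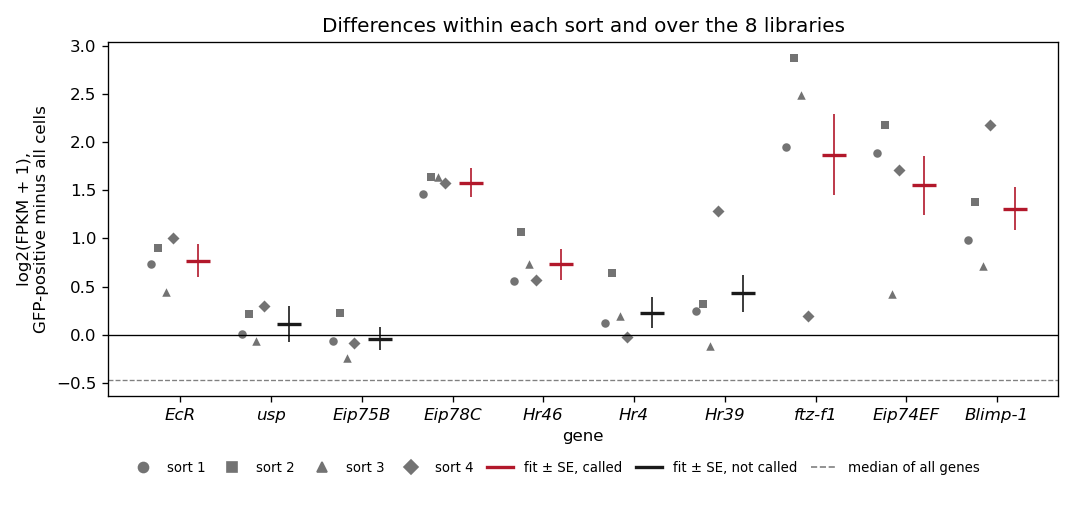
Difference of log2(FPKM + 1), GFP-positive minus all cells, for the 10 genes: grey symbols are the 4 sorts, bars the fit with its SE (red where the adjusted p is below 0.05), and the dashed line the median of all genes, -0.47. Eip78C spans 1.46 to 1.64 over the sorts and ftz-f1 0.19 to 2.87.

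In order of mean level, GFP-positive cells had Hr46 (285 FPKM), Eip75B (116), Hr4 (113), Blimp-1 (112), EcR (90.6), Hr39 (75.5), ftz-f1 (66.2), Eip78C (43.0), usp (24.3) and Eip74EF (9.69). Their ranges were separate only between Hr46 and Eip75B, between Eip78C and usp and between usp and Eip74EF among neighbours in that order. In all cells the order was Hr46 (174), Eip75B (119), Hr4 (97.3), Hr39 (55.1), EcR (53.6), Blimp-1 (43.2), usp (22.4), ftz-f1 (14.9), Eip78C (13.8) and Eip74EF (2.86). There Hr4 and Hr39, Blimp-1 and usp, and Eip78C and Eip74EF were the neighbours with separate ranges. FPKM is scaled by transcript length. Whether other differences between transcripts, such as in amplification, bear on these orders was not tested. Eip74EF lay above 58.1% of tested genes in GFP-positive and above 17.1% in all-cell libraries, and each of the other 9 above at least 77.3% and 58.5%.

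The authors' deposited table compares the 2 libraries of each sort with Cuffdiff. In the authors' deposited table Eip78C was significant in all 4 sorts, with log2 fold changes of 1.52 to 1.72 and q-values of 0.00923 to 0.0413. The same authors' deposited table calls EcR in sorts 1, 2 and 4, Eip74EF in sorts 1, 2 and 4 and ftz-f1 in sorts 1 to 3. In sort 3 the authors' deposited table gives EcR a log2 fold change of 0.44 (q-value 0.306) and Eip74EF 0.48 (q-value 0.488), and in sort 4 ftz-f1 0.20 (q-value 0.771). Blimp-1 (2.21, q-value 0.0143) and Hr39 (q-value 5.52e-04) were called in the authors' deposited table in sort 4 alone. usp, Eip75B, Hr4 and Hr46 were called in none of the 4 sorts in the authors' deposited table. Among isoforms called in the limma fit, Eip78C-RB was significant there in all 4 sorts (q-values 0.00481 to 0.0260). ftz-f1-RC was so in sorts 1 to 3, Eip74EF-RB in sorts 1 and 2 and Eip78C-RD in sorts 1 and 3. Eip74EF-RE and Blimp-1-RA were significant in sort 4 alone, and EcR-RB, EcR-RD, Hr46-RA and Eip75B-RD in none. Eip78C-RE, not called by limma, was significant and higher in sort 1 (2.76, q-value 0.0298).

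Other genes of the hormone's pathway were read from lists that were chosen with earlier results of these data known. Beside the counts of these lists stand 11.6% of all genes tested called higher and 38.7% called lower. Of 15 tested other ecdysone-response genes 5 were called higher and 6 lower, with a median of 0.05. ImpE1, ImpE2 and ImpL1, secreted or membrane proteins first found as ecdysone-inducible in imaginal discs, rose by 3.24, 3.08 and 2.69 log2 units and were called higher under all scalings run. ImpE1 stood at 329 to 430 against 21.8 to 61.6 FPKM (limma adjusted p = 1.56e-05). broad (br), a BTB zinc finger early gene, ran against them, at 2.85 to 17.3 against 21.5 to 74.7 FPKM (-2.43, limma adjusted p = 0.00148). Thus the early genes Eip74EF (1.55), Eip75B (-0.04, not called) and br (-2.43), known from 1 cascade, did not move together here.

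Of 12 tested other nuclear receptors 2 were called higher and 4 lower, with a median of -0.18. Called higher was kni, at 46.6 to 53.7 against 26.4 to 41.5 FPKM (0.53, limma adjusted p = 0.0193). So was knrl, with overlapping groups at 30.3 to 42.3 against 15.7 to 32.1 FPKM (0.69, limma adjusted p = 0.0210). The receptors called lower were svp (-2.76), tll, a receptor of terminal and brain patterning (-1.86), dsf (-1.05) and Hr38 (-0.75). seven-up (svp), which can compete with EcR for usp, stood at 3.70 to 12.8 against 55.9 to 68.3 FPKM (limma adjusted p = 6.02e-05). dsf and Hr38 stayed at 2.47 FPKM or below in all libraries. Hr38, another partner of usp, overlapped between the groups at 0.190 to 1.16 against 1.05 to 1.97 FPKM.

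Of 11 cofactors of ecdysone and nuclear receptors 1 was called higher and 7 lower, with a median of -0.55, close to the -0.47 of all genes. The largest changes were those of alien, a corepressor (-1.71), rig, needed for ecdysone signalling at metamorphosis (-0.79), Utx, a histone demethylase (-0.73), and E(bx), a subunit of the NURF chromatin remodeller (-0.68). With TMM-like scaling 1 was called higher and 1 lower, and with the 5 spike-ins 0 and 10. The member called higher, taiman (tai), a coactivator of EcR, stood at 57.9 ± 7.33 against 36.5 ± 2.47 FPKM (SD, n = 4 each; 0.64, limma adjusted p = 0.00246); it was named after its value was seen.

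Of 11 tested genes for ecdysone synthesis, transport and breakdown 5 were called higher and 0 lower, with a median of 0.50. Cyp18a1, the enzyme that inactivates ecdysone, rose by 2.39 log2 units, from 1.67 to 8.93 FPKM to between 17.4 and 41.7 FPKM (limma adjusted p = 6.35e-04), and was called higher under all scalings run. shade (shd), which makes 20-hydroxyecdysone from ecdysone in target tissues, stood at 5.49, 12.2, 7.65 and 8.29 against 3.26, 5.45, 3.99 and 2.12 FPKM (1.00, SE 0.30, limma adjusted p = 0.0173). mld, a zinc finger factor needed for ecdysone synthesis in the larval gland, rose by 0.69 and dib, a P450 of the pathway, by 1.22 (limma adjusted p = 0.0495), with overlapping groups at 2.57 to 8.36 against 0.0925 to 3.30 FPKM. Of 4 tested markers of the ring gland and ecdysteroid-producing cells 2, dib and mld again, were called higher and 0 lower, with sums of 78.5 to 94.6 against 48.6 to 59.3 FPKM, most of it mld, while spok was at or near 0 in all libraries.

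Of 4 tested ecdysone-dependent cuticle and tanning genes 1 was called higher and 0 lower. That gene was pale (ple), the tyrosine hydroxylase of tanning, at 15.4, 41.1, 31.9 and 5.77 against 6.93, 2.95, 3.24 and 6.23 FPKM. Its differences by sort, 1.05, 3.41, 2.96 and -0.09, were lowest in sort 4, as were those of ftz-f1 (log2 difference of ple 1.83, SE 0.51, limma adjusted p = 0.0111).

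Likeness of pattern was described by Pearson's r of log2(FPKM + 1) over the 8 libraries, which share 2 groups and 4 sorts. The genes most like ftz-f1, the member with the largest difference, were CG4998 (0.987), CG6055 (0.985) and CG32548 (0.984). All 3 had their lowest GFP-positive value in library 4 and their highest in library 2, as ftz-f1 had. For CG4998 the lowest was 12.1 FPKM, against 33.6 to 91.9 FPKM. They were picked for their likeness to ftz-f1 over these same libraries, so the shared pattern follows from the selection. The genes most like Eip75B, the member with the smallest, were CG33644 (0.951), CG12772 (0.887) and GstD6 (0.859), all at 8.81 FPKM or below.

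**Figure D5:**
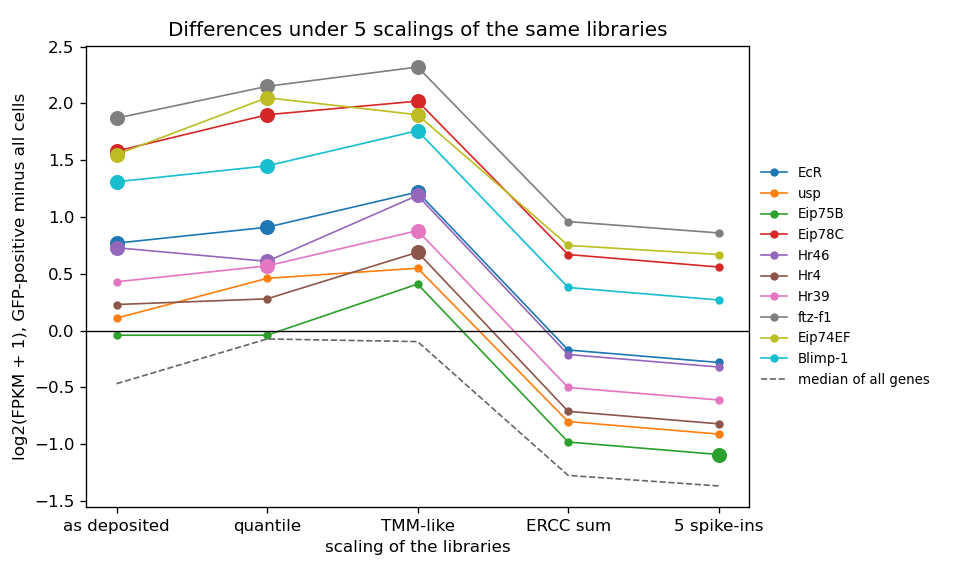
Difference of log2(FPKM + 1), GFP-positive minus all cells, for the 10 genes under 5 scalings of the same 8 libraries; large points passed the test, and the dashed line is the median of all genes. All 10 lines drop from TMM-like to either spike-in scaling with the median; the deposited values give 6 genes called higher, TMM-like scaling gives 8 and either spike-in scaling 0.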

How the data were processed

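RNA of 4 GFP-positive and 4 all-cell samples was amplified from 5 ng each. The authors deposited FPKM per gene and per isoform, for which the submitters' processing notes name Cuffdiff 1.3.0, Cufflinks 1.3.0, TopHat 1.4.0 and build dm3; their settings, the annotation and the use of strand were not given in the sources used. The authors also deposited Cuffdiff log2 fold changes and q-values, 1 comparison per sort. Genes and isoforms at 1 FPKM or more in at least 4 libraries were tested with limma 3.58.1 (R 4.3.3, mean-variance trend) on log2(FPKM + 1), two-sided, GFP-positive minus all cells, without a block, adjusted over all features tested. The test was run on simulated data first. Isoform shares (5% or more in 1 group) and the ratios were tested by exact permutation. All alternatives are in the closing section. The members, lists and tests were chosen with earlier results of these data known. All 10 genes and their tested isoforms are named. From each list of pathway genes up to 4 called genes with the largest change are named, and the 3 genes most like the members with the highest and the lowest difference. The genes tai, kni and knrl are named beyond this rule.

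The deposited values hold no counts, so depth was estimated from the smallest values, and FPKM below the floor of 3 fragments are imprecise. Coordinates are those of the deposited tables on dm3, written 1-based. Protein lengths come from a later annotation, to which 27 of 35 isoforms were matched by name and by span within 100 bases; Hr4-RC, EcR-RG, Eip74EF-RD, Eip75B-RF and 4 isoforms of Hr46 were not matched. 4 list names were matched through a table of synonyms. The labels tie libraries to numbered sorts, so that samples pair by number. Within sorts, residuals about each group's mean had correlations of 0.44, 0.10, 0.41 and 0.17, against at most 0.27, 0.04, 0.15 and -0.03 with a library of another sort. Nothing in the labels says that a sort is more than 1 cell suspension, and p-values measure the spread between sorts.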

Additional observations from a re-analysis of the deposited data

Results flagged for a closer look

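Each group of 4 libraries was screened for a library that stood apart from the other 3 by Dixon's test at the 95% level, over 70 groups of genes and isoforms. Chance alone gives about 1 such group in 20, and 4 were found. In all-cell library 3 Eip74EF was high at 5.59 FPKM against 1.82 to 2.04 FPKM in libraries 1, 2 and 4. Its log2 difference was 1.55 with that library and 1.84 without it. EcR-RD was high in the same library, at 31.1 FPKM against 19.7 to 21.6. ftz-f1-RC was low there, at 4.70 FPKM against 8.07 to 8.46. Hr46-RG was low in all-cell library 2, at 36.4 FPKM against 58.1 to 62.4.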

How the results depend on the processing

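The 6 genes called higher remained 6 under both pseudocounts, both filters, the sort block and each library left out. The block added the isoforms EcR-RC and Hr46-RG and lost no gene or isoform call of the 10 genes. The shares gave 0 calls in the 3 alternatives run, of which the block could not pass, its smallest p being 0.125. The main exact test of shares could pass only if most isoforms reached its smallest p. Scaling decided the rest. By the ERCC sum and by the 5 spike-ins 0 genes were called higher, and by the 5 spike-ins 1 was lower. Isoforms called higher went from 9 to 16 with TMM-like scaling and to 1 and 1 with the 2 spike-in scalings, and those lower from 1 to 0 (5 FPKM filter, quantile), 3 and 4; of all isoforms 9.28% were called higher as deposited, and 14.1%, 2.75% and 2.78% under those 3 scalings, and 27.2%, 14.9%, 42.5% and 53.7% lower. Of 53 context genes 14 were called higher, against 22 with TMM-like scaling, 22 with quantile normalization, 4 with the ERCC sum and 5 with the 5 spike-ins. Of the 17 called lower, TMM-like scaling left a count of 8 and quantile normalization 11; of all genes quantile normalization called 18.9% higher and 23% lower, and the ERCC sum 2.85% and 52.3%. Leaving out a library, 7 to 8 isoforms and 10 to 15 context genes were called higher. The isoform-to-rest fit gave 2 higher and 3 lower calls with a pseudocount of 5, against 430 and 399 of all 8371 isoforms. With the block it gave 0 and 0, against 4 and 3 of all 8371. Without a library it gave 1 to 2 lower calls, against 35 to 114 of all 8371. The added 1 was ftz-f1-RB without GFP-positive library 4 (limma adjusted p = 0.0405). The log2 ratios of EcR to usp and of Hr46 to Eip75B differed by 0.66 and 0.78. With the sort as a replicate block both lost the call (exact sign-flip adjusted p = 0.188). Without 1 library they ranged from 0.54 to 0.77 and from 0.66 to 0.88, losing it in 7 of 8 exact permutation tests each. The groups stay without overlap in each of these tests, which have fewer splits than the test of all libraries.

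Scaled by the ERCC sum, and then by the 5 spike-ins, these log2 differences turned below 0: EcR -0.17 and -0.28, usp -0.80 and -0.91, Hr39 -0.50 and -0.61, Hr4 -0.71 and -0.82, Hr46 -0.21 and -0.32, mld -0.24 and -0.35. Among isoforms so did EcR-RA -0.55 and -0.64, EcR-RC -0.12 and -0.22, EcR-RD -0.39 and -0.49, EcR-RE -0.51 and -0.57, Hr46-RD -0.31 and -0.39, Hr46-RF -0.86 and -0.97, Hr46-RG -0.41 and -0.52, ftz-f1-RB -0.24 and -0.34, Eip75B-RD -0.05 and -0.16, Hr39-RA -0.48 and -0.59, Hr39-RB -0.36 and -0.47, and Hr39-RC -0.44 and -0.54. TMM-like scaling turned Eip75B to 0.41, Eip75B-RA to 0.11 and Hr46-RE to 0.06, and quantile normalization turned Hr46-RE to 0.19 and Hr39-RD to 0.11. Hr46-RE became 0.32 with a pseudocount of 0.1. Over the fits without 1 library Eip75B ranged from -0.10 to 0.00, Eip78C-RE from -0.79 to 0.03, Hr46-RF from -0.06 to 0.16 and Hr46-RE from -0.49 to 0.23. The SE of EcR under the ERCC sum and the 5 spike-ins was 0.52 and 0.44, and that of Hr46 0.51 and 0.44. These SE exceed the size of both genes' values there. The cause of the scaling shifts was not tested. Of all 1068 single values recomputed, 931 kept direction and call, 68 lost and 21 gained a call, and 48 changed direction. Low isoforms are limited by depth.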
